A study of Mus musculus with 2 samples.

Results

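Interferon-stimulated genes are the genes that cells switch on when they sense a virus or receive an interferon signal. A list of 44 of them was looked up by symbol in the gene annotation of 2 single-cell RNA-seq libraries, and 43 of the 31053 annotated genes matched. Mx2 had no row and is named only. The libraries came from the ears of wild-type C57BL/6 mice, labelled as 10 weeks old, that received imiquimod on the skin on 5 consecutive days. Imiquimod is an agonist of the endosomal RNA receptor TLR7, and its repeated use gives a psoriasis-like inflammation in mice. The dermis library held live CD45+ cells from a sort, that is leukocytes, and the epidermis library held all live cells. Each layer was 1 library, so layer and library cannot be told apart, and no p-value or between-animal error can be given. Untreated skin was not analysed here, so every comparison is between cell types of inflamed skin, and none gives a change caused by imiquimod.

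Type I interferons signal through the receptor chains IFNAR1 and IFNAR2 to a complex that includes STAT2 and IRF9, which binds interferon-stimulated response elements in promoters. Interferon-gamma signals through IFNGR1 and IFNGR2 and acts on promoters through gamma-activated sites. The products detect foreign nucleic acid, degrade viral RNA, block viral entry, translation or budding, and, in the case of CXCL9 and CXCL10, attract T cells.

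Promoter sequence was looked up in RefSeq on the build GRCm38.p6 for the window from 250 bases before to 50 bases after each gene start, which was given for 33 of the 43 genes. The letters GAAANNGAAA, the core of an interferon-stimulated response element, were found on either strand in 21 of the 33 (63.6%) and in 3.99% of all 27025 genes with a promoter. The letters TTCNNNGAA, the core of a gamma-activated site, were found in 7 (21.2%) against 9.55% of all genes, and both were found in 5 (15.2%) against 0.614%. A match describes these letters only and is no proof of a working site. Oasl2, Irf7, Ifi47 and Xaf1, which also differed between cell types, had a promoter entry but no match. The stretches below are from members chosen among those with a match, so they cannot link the letters to cell-type differences. They read 5′ to 3′ on the strand of the gene, and capitals mark the matched letters, which overlap where 2 matches run into each other.
Isg15: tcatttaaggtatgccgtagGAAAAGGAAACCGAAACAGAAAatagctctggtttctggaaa
Ifit1: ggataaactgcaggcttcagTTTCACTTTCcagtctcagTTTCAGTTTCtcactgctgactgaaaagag
Ifit3: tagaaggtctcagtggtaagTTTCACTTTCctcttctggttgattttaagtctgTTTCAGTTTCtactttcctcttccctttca
Ifit3b: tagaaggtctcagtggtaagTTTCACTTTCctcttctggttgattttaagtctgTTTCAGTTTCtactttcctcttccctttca
Rsad2: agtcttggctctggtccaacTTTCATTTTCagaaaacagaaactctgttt
Oas1a: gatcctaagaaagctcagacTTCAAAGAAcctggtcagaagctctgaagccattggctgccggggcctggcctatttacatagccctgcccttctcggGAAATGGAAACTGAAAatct
Ifi205: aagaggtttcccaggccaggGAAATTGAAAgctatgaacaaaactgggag
Bst2: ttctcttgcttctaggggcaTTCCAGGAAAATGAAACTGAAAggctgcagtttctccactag
Cxcl10: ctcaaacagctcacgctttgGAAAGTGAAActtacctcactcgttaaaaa
Gbp2: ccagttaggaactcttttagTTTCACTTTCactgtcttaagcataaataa
Igtp: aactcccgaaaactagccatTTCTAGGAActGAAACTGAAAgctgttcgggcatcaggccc

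The Isg15 stretch lies on the minus strand at chr4:156200855-156200916 and holds 3 overlapping response-element matches. The Ifit1 stretch is at chr19:34640765-34640833 on the plus strand, and those of Ifit3 (chr19:34583353-34583436) and Ifit3b (chr19:34607749-34607832), also on the plus strand, were identical in 84 of 84 bases. Rsad2 (chr12:26456543-26456592, minus), Ifi205 (chr1:174031860-174031909, minus), Cxcl10 (chr5:92349073-92349122, minus) and Gbp2 (chr3:142620584-142620633, plus) each showed 1 match. Oas1a (chr5:120907526-120907643, minus), Bst2 (chr8:71537567-71537628, minus) and Igtp (chr11:58199491-58199551, plus) held both kinds of letters. All of these stretches end before the gene start and so lie upstream of the first exon. By family, all 4 of 4 nucleic acid sensors and 4 of 4 guanylate-binding proteins with a promoter entry held the response-element letters, against 0 of 2 in the group of Ifi44 and Xaf1. Ifi27l2a, the member with the most reads, had no promoter entry.

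After removal of cells with fewer than 200 genes or more than 10% mitochondrial UMIs (unique molecular identifiers, which count captured RNA molecules), 4747 of 5376 dermal and 4173 of 5258 epidermal cells were kept, with medians of 7010 and 25918 UMIs. Marker genes assigned 4437 dermal and 4171 epidermal cells to a type, of which 11 types with at least 50 cells are compared. The markers named next, from Mcpt8 to Col1a1, belonged to the lists that assigned the types, so their levels do not test the labels. Mcpt8 reached 8854 CPM (UMIs of the gene per 1000000 UMIs of the type) in basophils, Cma1 51922 in mast cells and Cd207 1010 in Langerhans cells. Trdc reached 4809 CPM in epidermal T cells, Krt14 18472 in keratinocytes, S100a8 57154 in neutrophils and C1qb 2344 in macrophages. Fibroblasts, with Col1a1 at 1250 CPM, were present in the dermis library although it was sorted for CD45. Markers of one type were also counted in cells of other types. Lyz2, a myeloid gene, was at 4.07 to 9.41% of its monocyte level in dermal T cells, basophils, dendritic cells, fibroblasts and mast cells, and Krt14 was at 23.5% of its keratinocyte level in epidermal T cells. Neutrophils held Lyz2 at 3302 CPM and the antigen-presentation gene Cd74 at 3684, against 4457 for Cd74 in monocytes. Fibroblasts held S100a8 at 3604 CPM, against 3156 in monocytes, and Trdc at 50.7, against 7.35 in macrophages. The part of such RNA in the levels below was not tested. The libraries shared 45 cell barcodes. The ranges in parentheses are exact 95% intervals, and they cover only the error of counting.

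The 43 genes were expressed most in dermal myeloid cells and least in keratinocytes. Their summed level was 2426 CPM (2395 to 2457) in 1102 monocytes, 1775 (1738 to 1813) in 876 neutrophils and 1488 (1467 to 1509) in 1290 macrophages. Dermal dendritic cells followed with 1206 CPM (1149 to 1266, 87 cells), dermal T cells with 1031 (991 to 1073, 252 cells), basophils with 935 (878 to 995, 232 cells) and fibroblasts with 809 (783 to 836, 374 cells). These 7 dermal types stood in an order in which only the intervals of T cells and basophils touched. In the epidermis, T cells reached 794 CPM (745 to 844, 475 cells), whose interval overlapped that of dermal fibroblasts. Langerhans cells, the dendritic cells of the epidermis, reached 209.8 CPM (187 to 235, 170 cells). Keratinocytes were lowest with 62.8 CPM (61.3 to 64.4, 3393 cells), 38.6-fold below monocytes. Dermal mast cells, with 576 CPM (465 to 707, 125 cells), rested on 92 UMIs in cells with a median of 871 UMIs.

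**Figure D1:**
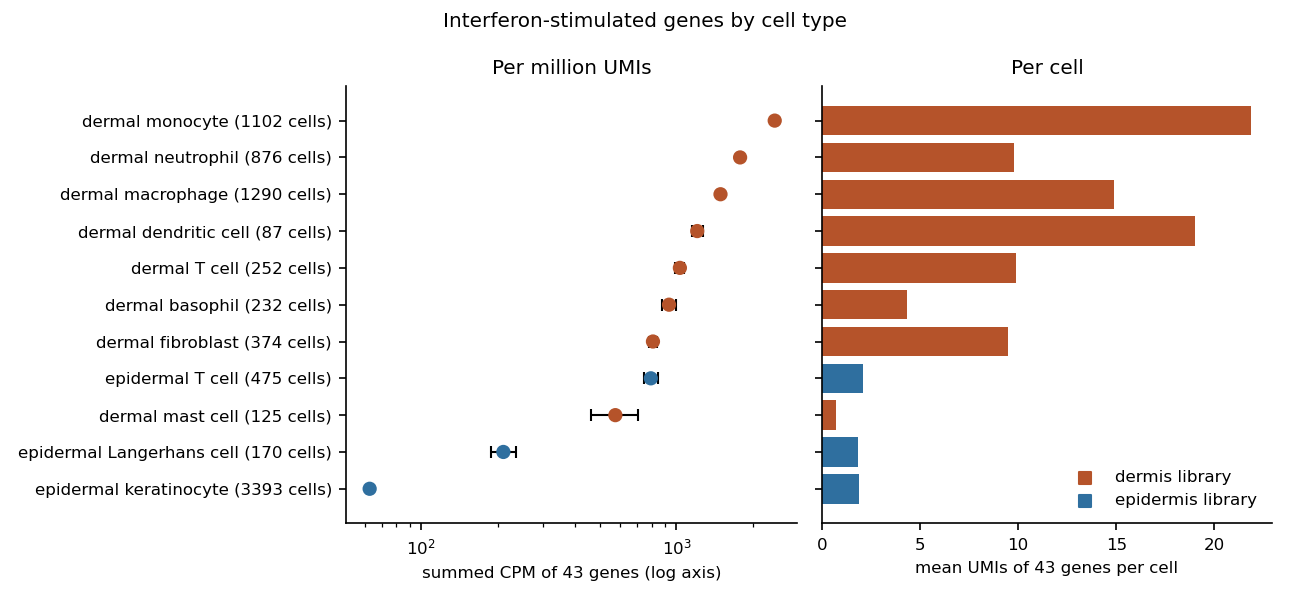
Left, summed level of the 43 genes in CPM on a log axis for each of 11 cell types, with exact 95% Poisson intervals. Right, the mean number of their UMIs per cell on a linear axis from 0. Orange is the dermis and blue the epidermis library. Monocytes lead both panels, while epidermal T cells (794 CPM) and keratinocytes (62.8 CPM) differ widely on the left and hardly on the right.

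The order depended partly on whether levels were taken per UMI or per cell. A keratinocyte held 1.88 member UMIs on average, an epidermal T cell 2.09 and a Langerhans cell 1.82, against 21.8 in a monocyte, 19.0 in a dermal dendritic cell, 14.9 in a macrophage and 9.81 in a neutrophil. Epidermal T cells were thus 12.6-fold above keratinocytes per UMI (11.8 to 13.5) but 1.11-fold above them per cell. Monocytes stayed above keratinocytes on both scales. With every cell thinned to 1000 UMIs, 78.3% of monocytes, 68.0% of macrophages and 68.0% of neutrophils held a UMI of at least 1 member. The share was 55.2% in dermal T cells, 51.1% in epidermal T cells, 19.6% in Langerhans cells and 7.45% in keratinocytes. Cells below 1000 UMIs were left out, namely 145 keratinocytes, 80 mast cells, 55 neutrophils, 16 macrophages, 15 fibroblasts, 9 epidermal T cells, 4 monocytes, 4 dermal T cells, 2 basophils and 2 Langerhans cells. Without thinning, which leaves the deeper cells with more chances, these shares were 99.1, 98.2, 91.4, 98.4, 79.2, 75.3 and 66.8%.

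**Figure D2:**
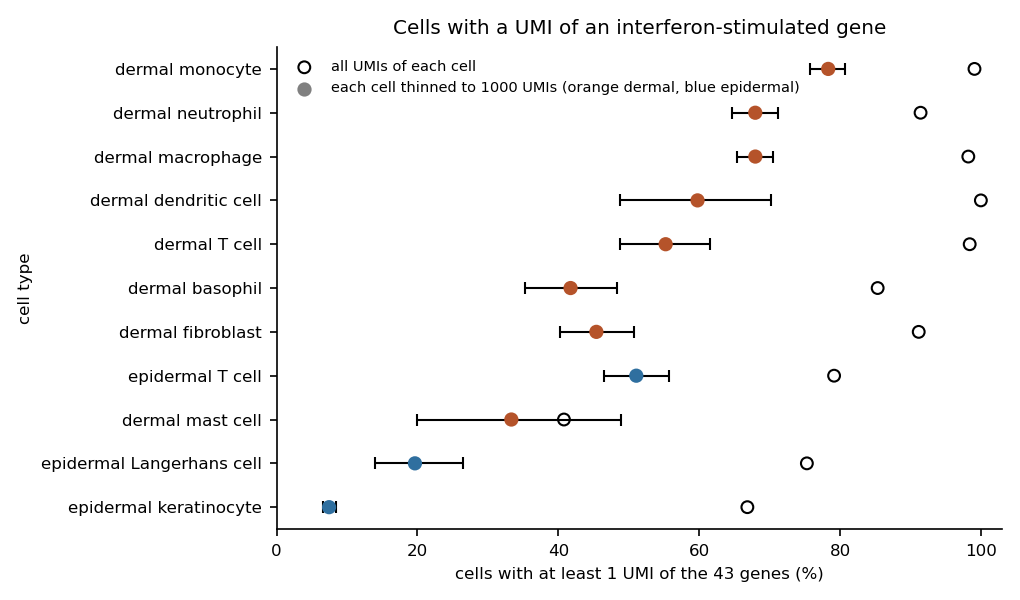
Percentage of cells with at least 1 UMI of the 43 genes in 11 cell types, before thinning (open circles) and after thinning each cell to 1000 UMIs (filled, with exact 95% binomial intervals; orange dermal, blue epidermal). Keratinocytes fall from 66.8 to 7.45%, monocytes only from 99.1 to 78.3%.

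A single gene took much of the sum. Ifi27l2a, which encodes a small mitochondrial membrane protein, gave 47.4% of the member UMIs of monocytes, 41.3% of dermal T cells, 40.01% of macrophages and 38.4% of neutrophils, but 4.85% of those of Langerhans cells and 4.32% of those of epidermal T cells. Its level was 1149.5 CPM in monocytes, 682 in neutrophils and 595 in macrophages. It was 426 CPM in dermal T cells, 284 in dendritic cells, 213 in fibroblasts, 108 in basophils and 106 in mast cells, and in the epidermis 34.3 in T cells, 18.3 in keratinocytes and 10.2 in Langerhans cells. Among these 11 types every dermal type stood above every epidermal one, but the few epidermal monocytes (581 CPM in 17 cells) and neutrophils (529 in 39 cells) exceeded dermal T cells, dendritic cells and fibroblasts. The levels of basophils and mast cells were 9.37 and 9.26% of the monocyte level, where the same cells held Lyz2 at 5.88 and 8.94%. Without Ifi27l2a, monocytes (1276 CPM) still exceeded neutrophils (1094) and macrophages (892), and keratinocytes (44.5) were still lowest. The order between them changed, with dendritic cells (922) above macrophages. Epidermal T cells (759) then stood above dermal T cells (606) and fibroblasts (596), but 557 of their 995 member UMIs were Bst2.

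Of the 43 genes, 15 were highest in monocytes, 11 in neutrophils, 5 in dermal T cells, 3 each in basophils and epidermal T cells, 2 each in macrophages and mast cells, and 1 each in dendritic cells and fibroblasts. The top type stood apart from the next by an interval that did not include 1 for 8 of the 15 monocyte genes, 6 of the 11 neutrophil genes, 2 basophil genes, 1 gene of epidermal T cells and 1 of dendritic cells, and for no gene of the remaining types. Such intervals are narrower in types with more UMIs, with 9920405 in monocytes and 159662 in mast cells. The same counts were not made over all genes, so they do not show a trait of the list.

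**Figure D3:**
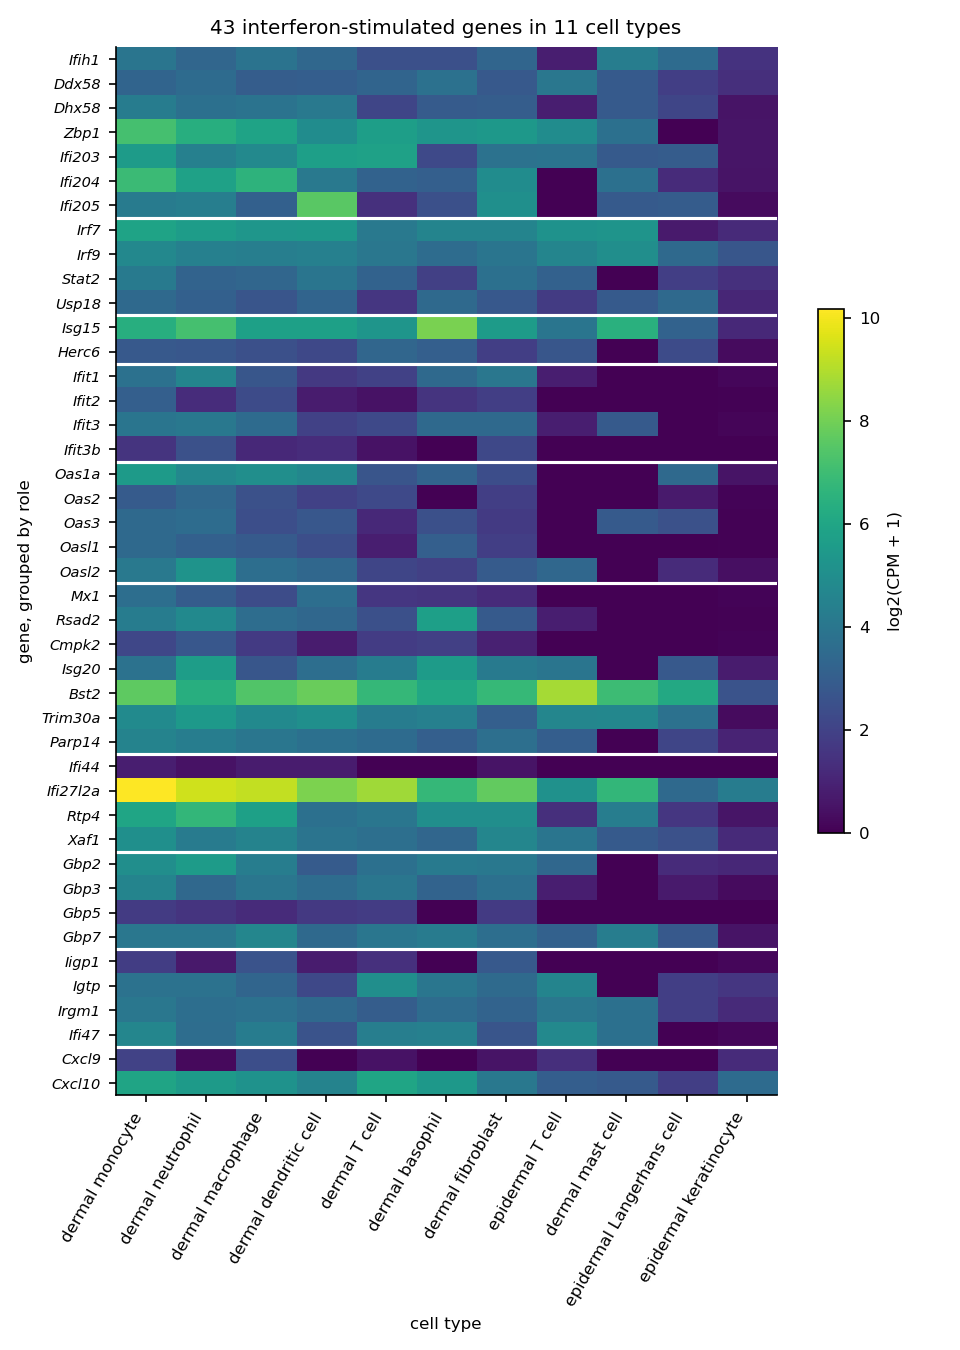
Level of each of the 43 genes as log2(CPM + 1) in 11 cell types, ordered from the highest to the lowest summed level, with white lines between groups of genes by role. Ifi27l2a and Bst2 are bright in most columns, Isg15 in basophils and Ifi205 in dendritic cells stand out in their rows, and the keratinocyte column is dark.

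Among the transcription factors and feedback genes, Irf7, the regulator that amplifies type I interferon production, was at 58.2 CPM in monocytes, 47.7 in neutrophils, 40.9 in dendritic cells, 39.4 in macrophages and 35.1 in epidermal T cells. It was at 1.35 CPM in keratinocytes, and Langerhans cells held 1 UMI. The monocyte level exceeded the neutrophil level 1.22-fold (1.04 to 1.43). Irf9, the DNA-binding partner of STAT2, was the most even of the members detected in every type (5.68-fold between extremes). Its level ran from 31.3 CPM in mast cells to 5.51 in keratinocytes. It was at 25.6 CPM in monocytes, 23.9 in epidermal T cells and 10.2 in Langerhans cells. Mast cells and monocytes did not differ beyond counting error (1.22-fold, 0.394 to 2.89). Stat2 reached 16.8 CPM in monocytes and 14.6 in dendritic cells, which did not differ beyond counting error (1.15-fold, 0.723 to 1.94). Usp18, the protease that removes ISG15 and dampens IFNAR signalling, was at about the same level in basophils (10.2 CPM), Langerhans cells (10.2) and monocytes (9.98).

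The sensors of foreign nucleic acid divided by cell type. Zbp1, a sensor of Z-form nucleic acid that can trigger necroptosis, was highest in monocytes at 142 CPM, 1.76-fold above neutrophils (1.57 to 1.97), and was at 58.0 in macrophages, 50.6 in dermal T cells and 29.5 in epidermal T cells. Ifi204, a member of the PYHIN family of DNA sensors, was at 123 CPM in monocytes, 94.5 in macrophages and 55.6 in neutrophils, while epidermal T cells held 0 UMIs. Both were thus led by monocytes.
A related PYHIN gene, Ifi205, was a gene of dendritic cells, at 190.4 CPM there against 32.3 in fibroblasts, a 5.89-fold difference (4.79 to 7.28). Its 261 UMIs came from 20 of 87 dendritic cells. Ifi203 was at 56.0 CPM in dermal T cells, 51.8 in dendritic cells and 46.5 in monocytes, where the leading pair did not differ beyond counting error (1.08-fold, 0.805 to 1.46). The RNA helicases were lower and flatter. Ddx58, which encodes RIG-I, was at 15.2 CPM in epidermal T cells, 10.7 in neutrophils and 8.67 in monocytes. Ifih1, which encodes MDA5, was at 18.8 CPM in mast cells and 14.6 in monocytes (1.29-fold, 0.262 to 3.83). It was at 13.8 CPM in macrophages and 10.9 in Langerhans cells. Dhx58, which encodes LGP2, was at 18.2 CPM in monocytes and 16.1 in dendritic cells.

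Isg15 encodes a ubiquitin-like protein that is attached to other proteins, and among the 11 types it was highest in basophils and neutrophils. It was at 279 CPM in basophils (248 to 312), 144 in neutrophils, 87.7 in mast cells, 81.2 in monocytes, 54.5 in macrophages and 53.3 in dendritic cells. The basophil level was 1.94-fold above that of neutrophils (1.69 to 2.22). Of 232 basophils, 72 held an Isg15 UMI. The richest 12 cells held 53.7% of the 300 UMIs, and no cell held more than 23. In the epidermis Isg15 was at 14.4 CPM in T cells, 8.15 in Langerhans cells and 1.27 in keratinocytes, 219.8-fold below basophils. Herc6, the mouse ligase for ISG15, did not follow it, with 9.13 CPM in dermal T cells, 7.43 in basophils and 5.78 in neutrophils. Across the 11 types the members most like Isg15 by Pearson correlation of log2(CPM + 1) were Gbp7 (r = 0.88), Ifit3 (0.87) and Rtp4 (0.87), a description over types that share 2 libraries.

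The IFIT genes, whose products bind viral RNA and block its translation, were low everywhere. Ifit1 was at 23.96 CPM in neutrophils, 15.2 in fibroblasts and 5.65 in macrophages, and neutrophils exceeded fibroblasts 1.57-fold (1.15 to 2.16). Ifit3 was at 15.9 CPM in neutrophils and 14.3 in monocytes, and Ifit2 at 7.36 in monocytes and 3.95 in macrophages. Langerhans cells held 0 UMIs of all 4 IFIT genes and epidermal T cells 1 UMI each of Ifit1 and Ifit3. Reads of Ifit3 and its neighbour Ifit3b (4.75 CPM in neutrophils) cannot be fully separated, since 12.9% of the 60-base words at the 3′ end of Ifit3 also occur in Ifit3b.

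The OAS genes make the signal that activates the RNA-degrading enzyme RNase L, apart from Oasl1, which lacks that activity. Oas1a was led by monocytes (45.2 CPM) over macrophages (31.3), neutrophils (26.0) and dendritic cells (24.8), but it shares 51.2% of its 3′ words with Oas1g and the counts of the pair are uncertain. Oasl2 was instead led by neutrophils, at 35.9 CPM against 16.3 in monocytes (2.20-fold, 1.77 to 2.74). Oas2 was at 9.92 CPM and Oas3 at 10.9 in neutrophils, and epidermal T cells held 0 UMIs of Oas1a, Oas2, Oas3 and Oasl1, although they had Oasl2 at 9.57 CPM.

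Bst2 encodes tetherin, which holds budding virus at the cell surface, and among the 11 types it was the one effector with its highest level in the epidermis. Epidermal T cells had 444 CPM, with the gene in 289 of 475 cells, 1.95-fold above dermal dendritic cells at 228 (1.70 to 2.25). Monocytes were at 199, macrophages at 171, fibroblasts at 109.9, dermal T cells at 109.5, Langerhans cells at 69.3 and keratinocytes at 5.12 CPM. Of the types with fewer than 50 cells, 37 dermal endothelial cells reached 449.7 CPM, and 15 dermal plasmacytoid dendritic cells 1458 (1287 to 1645). Rsad2, which encodes the antiviral enzyme viperin, was highest in basophils at 52.0 CPM against 27.5 in neutrophils (1.89-fold, 1.36 to 2.61), but its 56 UMIs lay in 15 of 232 cells and 20 of them in 1 cell.
Isg20, an RNA exonuclease, was at 49.4 CPM in neutrophils and 46.4 in basophils, which did not differ beyond counting error (1.06-fold, 0.781 to 1.47), and at 5.57 in macrophages. Trim30a, a regulator of innate signalling that shares 19.4% of its 3′ words with Trim30d, was at 44.6 CPM in neutrophils, 28.0 in monocytes and 24.7 in epidermal T cells. Mx1, a GTPase that acts on influenza virus, was at 11.9 CPM in monocytes and 11.7 in dendritic cells. Parp14 was at 22.6 CPM in monocytes and Cmpk2, the neighbour of Rsad2, at 5.78 in neutrophils. Of the remaining interferon-induced genes, Rtp4 was at 104.7 CPM in neutrophils, 62.0 in monocytes and 53.6 in macrophages, and Xaf1, an antagonist of the apoptosis inhibitor XIAP, at 32.2 in monocytes and 24.6 in fibroblasts. Ifi44 was at 0.806 CPM or less in all 11 types.

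The guanylate-binding proteins and immunity-related GTPases attack the vacuoles of intracellular pathogens and are strongly induced by interferon-gamma. Gbp2 was at 46.3 CPM in neutrophils and 31.4 in monocytes (1.48-fold, 1.24 to 1.76), Gbp3 at 23.1 in monocytes and Gbp7 at 24.2 in macrophages. Gbp5 did not pass 2.49 CPM in any type. The members most like Gbp2 over the 11 types were Parp14 (r = 0.94), Ifit1 (0.91) and Oasl2 (0.89). T cells held the most of the GTPases Igtp and Ifi47. Igtp was at 31.5 CPM in dermal and 23.1 in epidermal T cells (1.36-fold, 0.878 to 2.17), and Ifi47 at 26.3 in epidermal T cells and 24.6 in monocytes (1.07-fold, 0.720 to 1.54). Irgm1 was at 15.5 CPM in monocytes, 15.2 in epidermal T cells and 12.9 in macrophages, and at 2.72 in Langerhans cells and 1.29 in keratinocytes. Iigp1 was at 6.14 CPM in fibroblasts and 5.11 in macrophages.

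The chemokine Cxcl10 was at 62.6 CPM in dermal T cells, 60.3 in monocytes, 45.9 in neutrophils, 41.8 in basophils and 35.0 in macrophages. The first 2 did not differ beyond counting error (1.04-fold, 0.864 to 1.24), and 46 of the 151 UMIs of dermal T cells came from 1 cell. Cxcl9 was scarce, at 4.41 CPM in macrophages, 3.02 in monocytes, 1.60 in epidermal T cells and 1.40 in keratinocytes.

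Monocytes and macrophages were compared over the 42 members with at least 20 UMIs in both types together. At least 2-fold higher in monocytes were 6 members, against 5.67% of 11269 genes, and 0 were at least 2-fold lower, against 9.48%. The members were Mx1 (2.85-fold, 2.05 to 4.01), Zbp1 (2.45-fold), Isg20 (2.39-fold), Ifi205 (2.30-fold), Ifit1 (2.30-fold) and Oas3 (2.27-fold). The median log2 ratio was 0.58 over members and -0.08 over all genes. Ifi27l2a was 1.93-fold higher in monocytes (1.88 to 1.99), and Iigp1 was 1.95-fold higher in macrophages (1.22 to 3.20). Within macrophages, the 326 cells with markers of resident cells had 1714 CPM (1675 to 1753) against 1376 (1351 to 1401) in the other 964, with Ifi27l2a at 762 against 513 and Cxcl10 at 28.5 against 38.3. Without Ifi27l2a the sums were 952 and 863 CPM. The median log2 ratio was 0.059 over members and 0.057 over all genes. Resident cells needed at least 3 detected markers and were deeper (median of 12022 against 7430.5 UMIs), and the part of depth was not tested.

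Neutrophils were higher than monocytes by at least 2-fold for 3 of 42 members, against 9.82% of 10522 genes, and lower for 8, against 7.07%. Leaving mitochondrial, ribosomal protein and keratin genes out of the total gave 2 and 13, against 7.52 and 15.3% of all genes, and moved the median log2 ratio of all genes from -0.21 to -0.45. The higher members were Isg20 (3.71-fold, 2.99 to 4.62), Ifit3b (2.48-fold, 1.29 to 4.82) and Oasl2. The lower members included Bst2 (82.2 against 199 CPM, 2.42-fold), Ifi203 (20.2 against 46.5), Ifi204, Ifi47 (11.4 against 24.6), Gbp3 (9.71 against 23.1) and Ifit2, with 7 UMIs in neutrophils and 73 in monocytes (5.09-fold lower, 2.35 to 13.1). The median log2 ratio was -0.32 over members and -0.21 over all genes.

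T cells were the one type with more than 50 cells in both layers. Summed, dermal T cells were 1.30-fold above epidermal T cells (1.21 to 1.40). This rested on Ifi27l2a, without which dermal T cells were lower, at 0.798 of the epidermal level. The epidermal sum rested in turn on Bst2, with 557 of its 995 member UMIs, against 264 of 2486 in dermal T cells. The ratio without both genes was not computed, so 0.798 does not give the direction of the other members. Over the 24 members compared singly the median log2 ratio, dermal over epidermal, was 0.39. Of 24 members with at least 20 UMIs, 7 were at least 2-fold higher in the dermis, against 8.77% of 8718 genes, and 4 at least 2-fold lower, against 24.3%. With the other total the counts were 8 and 2, against 10.35 and 19.8% of all genes. The higher members were Ifi27l2a (12.4-fold, 9.15 to 17.3), Cxcl10 (8.73-fold, 4.48 to 19.5), Rtp4 (36 against 2 UMIs), Gbp3 (36 against 1 UMI), Ifi203 (4.13-fold, 2.49 to 7.30), Isg15 (2.72-fold, 1.63 to 4.78) and Ifi204, with 20 against 0 UMIs, at least 3.47-fold higher.
In the epidermis Bst2 was 4.06-fold higher (3.50 to 4.71), Irf7 2.17-fold (1.38 to 3.43), Irgm1 2.15-fold (1.06 to 4.40) and Oasl2 2.88-fold on 12 UMIs (1.08 to 8.13). The median log2 ratio, dermal over epidermal, was 0.39 over members and -0.41 over all genes.

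The T cells of the layers were not the same cells. Of 475 epidermal T cells 454 (95.6%) held a UMI of Trdc, the constant gene of the delta T cell receptor chain, at a median of 2359 UMIs per cell, against 18.0% of keratinocytes at a median of 30629. Of 252 dermal T cells 97 (38.5%, median of 7556.5 UMIs) held one, against 15.2% of fibroblasts (median of 10072), 4.26% of macrophages and 2.72% of monocytes. Of the other dermal T cells 46 held a Foxp3 UMI, which 1.60% of fibroblasts and 0.817% of monocytes also did, and 109 held neither. The Foxp3+ cells, which hold the regulatory T cell factor, had 2412 CPM of the 43 genes (2247 to 2587), the other cells 1004 (942 to 1069) and the Trdc+ cells 649 (602 to 698). Ifi27l2a was at 1508.5 CPM in Foxp3+ cells, with a UMI in 38 of 46, and at 111 in dermal Trdc+ cells, with a UMI in 51 of 97, a 13.6-fold difference (11.2 to 16.7). Foxp3+ cells also exceeded dermal Trdc+ cells in Gbp7 (64.1 against 8.10 CPM, 7.92-fold, 3.48 to 19.6), Gbp3 (48.9 against 8.10), Isg20 (64.1 against 10.8) and Igtp (55.0 against 14.4).
Between Trdc+ cells of the layers, the dermal level was 0.806 of the epidermal level (0.730 to 0.889). Of 17 members, 3 were at least 2-fold higher in the dermis, against 7.16% of 7541 genes, and 4 lower, against 29%. The median log2 ratio was -0.60 over members and -0.51 over all genes. Ifi27l2a was still 7.36-fold higher in the dermis (4.42 to 13.1), with 37 of its 123 dermal UMIs in 1 cell. Ifi203 was 7.35-fold higher there (3.64 to 16.8) and Cxcl10 15.9-fold, with 46 of its 94 UMIs in 1 cell. The dermal Ifi27l2a level was 9.63% of the monocyte level, against 4.78% for Lyz2 in dermal T cells. Bst2 was again 4.22-fold higher in the epidermis (3.48 to 5.16), Irf7 2.82-fold (1.53 to 5.46), Irgm1 2.53-fold (1.01 to 7.16) and Ddx58 3.14-fold (1.10 to 10.97).

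**Figure D4:**
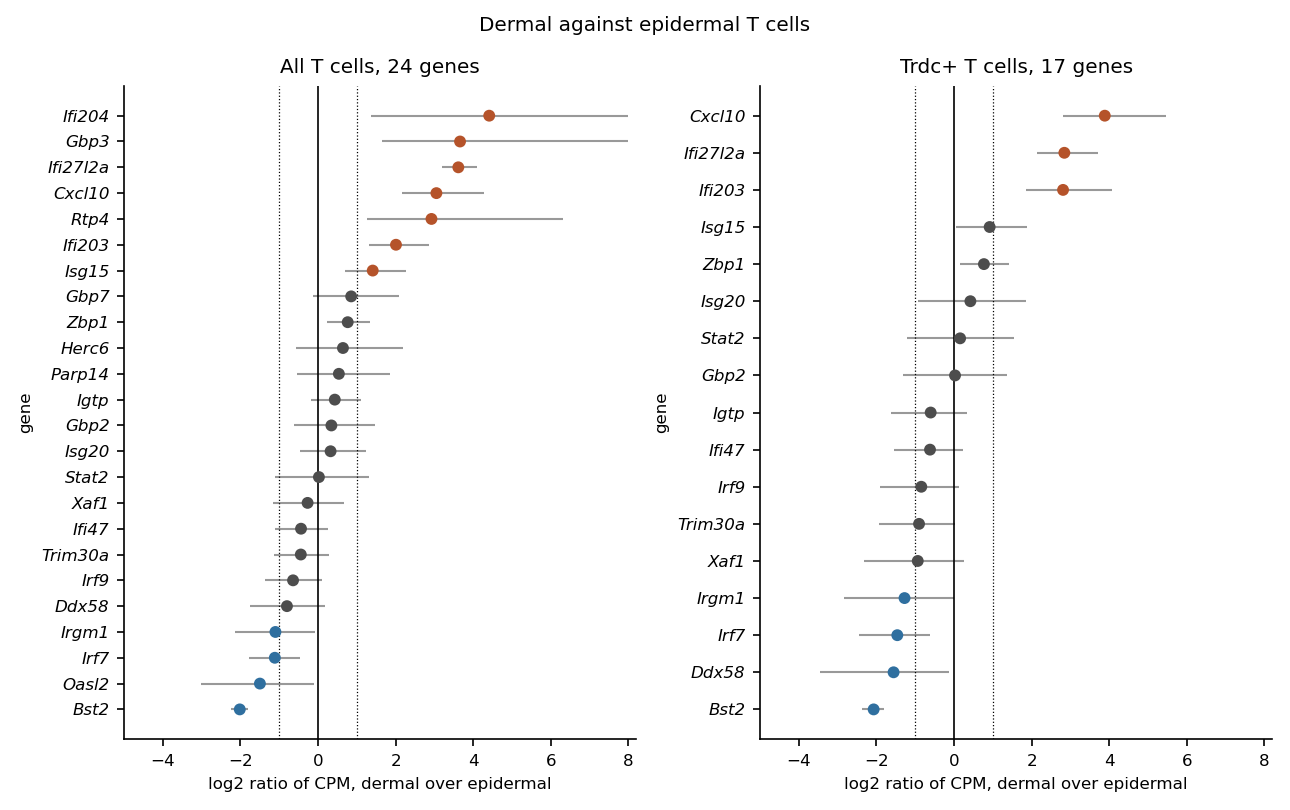
Log2 ratio of CPM, dermal over epidermal, for members with at least 20 UMIs in all T cells (left, 24 genes) and in Trdc+ T cells (right, 17 genes), with exact 95% intervals drawn up to 8. Orange points are at least 2-fold higher in the dermis and blue points at least 2-fold higher in the epidermis, with dotted lines at 2-fold. Ifi27l2a and Cxcl10 stand to the right and Bst2 to the left in both panels.

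Keratinocytes were below the dermal types for most members. For 37 of 43 genes the keratinocyte level was lower than in each of the 7 dermal types other than mast cells, and the median member was at 1.59% of its monocyte level. For 20 of 43 the keratinocyte level was also lower than in both epidermal T cells and Langerhans cells, where many members had 0 UMIs. These counts were not made over all genes, so they do not show a trait of the list. Over 1 CPM were 16 members and over 5 CPM 4, namely Ifi27l2a (18.3), Cxcl10 (10.9), Irf9 (5.51) and Bst2 (5.12). The members nearest to the monocyte level were Cxcl9 (46.1%), Irf9 (21.5%), Cxcl10 (18.1%), Ddx58 (17.9%), Igtp (15.7%), Ifih1 (12.2%) and Usp18 (11.3%). No UMI of Ifit3b or Gbp5 was seen in the 101763068 UMIs of keratinocytes, which allows up to 0.03625 CPM.

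Epidermal T cells were at least 2-fold above keratinocytes for 23 of 30 members, against 32.2% of 13297 genes. They were at least 2-fold below for 0, against 15.5%. The 0.5 UMI added for these calls raises the T cell level of members with 0 or 1 T cell UMI. Dhx58 was thus counted as higher on 1 UMI, at 0.798 against 0.462 CPM, and Ifih1 was not counted as lower. With 0.1 UMI added some members were called lower, as given further below. The largest ratios were for Ifi47 (26.3 against 0.118 CPM, 223-fold), Trim30a (101-fold), Bst2 (86.8-fold, 76.9 to 98.0) and Zbp1 (62.6-fold). The T cell genes Cd3g, Cd3e, Cd3d and Trdc were in keratinocytes at 0.180 to 0.302% of their T cell level, Ifi47 at 0.448% and Bst2 at 1.15%. Whether free RNA gave these keratinocyte counts was not tested. The 7 members short of 2-fold were Ifi27l2a (34.3 against 18.3 CPM, 1.88-fold, 1.35 to 2.54), Cxcl9, Cxcl10, Ifih1, Ifi204, Ifi205 and Oas1a, the last 3 with 0 UMIs in T cells. Cxcl10 in T cells was at 0.659 of the keratinocyte level (0.301 to 1.26) on 9 UMIs, and Ifih1 was at 0.798 against 1.78 CPM on 1 UMI. The median log2 ratio was 3.20 over members and 0.38 over all genes. Langerhans cells were at least 2-fold above keratinocytes for 19 of 29 members, against 15.9% of 13186 genes, and below for 2, against 24.5%. They exceeded keratinocytes in Trim30a (52.5-fold), Ifi205 (28.8-fold), Oas1a (22.1-fold), Bst2 (13.5-fold) and Usp18 (9.01-fold). The pair called lower was the chemokines, with Cxcl10 4.01-fold lower (1.56 to 14.7) and 0 UMIs of Cxcl9. A count of 0 in Langerhans cells allows up to 2.505 CPM. This is above the 1.395 CPM of Cxcl9 in keratinocytes, so Cxcl9 was not shown to be lower.

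Cxcl10 in keratinocytes came from few cells. Its 1108 UMIs lay in 360 of 3393 keratinocytes, and the richest 5% of cells held 82.9% of them. Of 60 cells with at least 5 Cxcl10 UMIs, 59 (98.3%) were basal and 41 (68.3%) cycling by their markers, against 85.5 and 45.1% of the 3033 keratinocytes with no Cxcl10 UMI, and 3 were called doublets. The 60 cells were deeper, with a median of 37260 UMIs against 29680 in the 3033. Cycling was also called by a fixed number of UMIs, and the part of depth was not tested. In these 60 cells Igtp was at 9.63 CPM (6.03 to 14.6) and Gbp2 at 7.88 (4.67 to 12.5), against 2.08 and 1.17 in all keratinocytes, but most of these UMIs came from 1 cell. That cell, with 136 Krt5 and 440 Krt14 UMIs among 34737 and not called a doublet, held 225 UMIs of 18 members. Of these 143 were Cxcl10, 33 Cxcl9, 13 Gbp2 and 12 Igtp. Isg15, Ifit1, Ifi47, Ifih1, Rtp4, Xaf1, Parp14 and Gbp7 had 2 UMIs each. Basal keratinocytes had 63.5 CPM of the 43 genes, spinous cells 56.8 and upper follicle cells 59.3. Cxcl10 was at 11.8 CPM in basal and 3.55 in spinous cells (3.32-fold, 2.39 to 4.77), while Bst2 was 1.68-fold higher in spinous cells (1.31 to 2.13). Some genes of other cell types were also higher in spinous than in basal cells, with Cd3g at 20.1 against 13.5 CPM, Trdc at 10.96 against 8.44 and Lyz2 at 44.4 against 28.96, while Cd74 was lower, at 177 against 227. Their part in the Bst2 difference was not tested.
Cycling basal cells had 58.0 CPM against 74.6 in those not cycling. Irf7 was 2.71-fold lower in cycling cells (1.90 to 3.90), and Cxcl10 was 1.55-fold higher (1.35 to 1.79). The cell with 143 Cxcl10 UMIs was among the cycling cells, and the Cxcl10 ratio without it was not computed. Myeloid and antigen-presentation genes moved in the same direction as Irf7, with Lyz2 at 7.66 against 71.6 CPM, Tyrobp at 13.4 against 71.4 and Cd74 at 136 against 408. Their part in the result was not tested.

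Within a dermal type the genes differed in how widely they were spread over cells. Ifi27l2a was found in 981 of 1102 monocytes, and the richest 5% of monocytes held 22.8% of its UMIs. Zbp1 (28.3%), Ifi204 (32.7%), Oas1a (33.0%) and Bst2 (38.9%) were also spread widely. At the other end, all 129 Ifit1 UMIs lay in 42 monocytes and all 73 Ifit2 UMIs in 33, and the richest 5% held 94.5% of Rsad2, 94.4% of Ifit3 and 85.8% of Cxcl10. A gene seen in fewer than 5% of cells reaches 100% by construction. The share was also high for genes with few UMIs and no rich cell. Oas2, with 66 UMIs in 65 monocytes and at most 2 in a cell, reached 86.4%, and Herc6, with 62 UMIs in 57, reached 98.4%. The share at equal counts was not computed, so these shares do not rank genes by concentration in few cells. Over 37 members with at least 50 UMIs in monocytes the share ran from 22.8 to 100% with a median of 59.3%, and 26 of the 37 lay between 40 and 90%. It ran in macrophages from 28.3 to 100% (39 members) and in neutrophils from 38.6 to 100% (28 members).

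**Figure D5:**
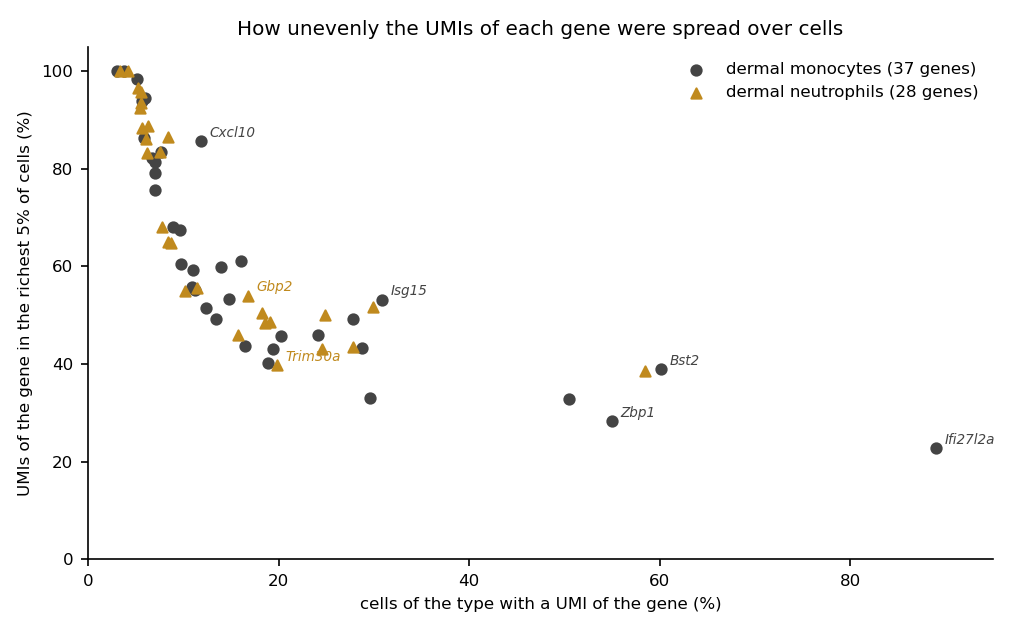
For members with at least 50 UMIs in dermal monocytes (circles, 37 genes) or neutrophils (triangles, 28 genes), the percentage of cells with a UMI of the gene (horizontal) and the percentage of its UMIs in the richest 5% of cells (vertical), both on linear axes. In monocytes Ifi27l2a lies at the lower right with 22.8% of its UMIs in the richest cells, and Cxcl10 at the upper left with 85.8%.

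Cells with reads of Ifit1 or Ifit3 also held other members. With each cell thinned to 2000 UMIs, 28 of 1087 monocytes had a UMI of Ifit1 or Ifit3. Ifit2 and Ifit3b were not used, so cells with only these count among the others. Thinning left out 15 monocytes, 163 neutrophils and 61 macrophages. Of the 28 monocytes 53.6% (33.9 to 72.5%) held Isg15, against 11.6% (9.75 to 13.7%) of the other monocytes. Rtp4 was held by 53.6% against 10.0%, and Irf7 by 14 of the 28, against 7.84%. Oasl2 was in 35.7% against 3.12% and Rsad2 in 25.0% against 1.89%.
Ifi27l2a differed little, with 82.1% (63.1 to 93.9%) against 68.7% (65.9 to 71.5%). The 42 neutrophils with an Ifit1 or Ifit3 UMI held Rtp4 in 61.9% against 16.2% of the other 671, and Rsad2 in 33.3% against 2.53%. The 33 such macrophages held Isg15 in 42.4% against 6.69% of 1196. Irf7 in neutrophils was within counting error, at 11.9% (3.98 to 25.6%) against 7.90% (5.97 to 10.2%). The median monocyte held UMIs of 2 members at this depth, and the richest held 25.

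Of 21 interferon genes listed, the 14 genes of the Ifna and Ifnab family and both Ifnl genes had 0 UMIs in all 11 types. Ifnb1, the type I interferon that many cells make first, had 12 UMIs in 6 of 1290 macrophages, 6 in 3 of 1102 monocytes and 1 in neutrophils, and is named here after its values were seen because it fell short of 20 UMIs. Ifng was at 7.47 CPM in dermal T cells, from 18 UMIs in 11 cells, and epidermal T cells held 3 UMIs. In 28 dermal natural killer cells Ifng was at 442 CPM (352 to 548), with 83 UMIs in 14 cells. Of the receptors, Ifngr1 was at 245 CPM in monocytes, 218 in dermal T cells, 72.3 in keratinocytes and 21.1 in Langerhans cells. Ifnar2 was at 134 CPM in monocytes and 16.5 in keratinocytes, and Ifnar1 at 35.5 and 5.88. Ifnlr1, the chain for type III interferon, was at 2.48 CPM in neutrophils and 1.30 in keratinocytes. Keratinocytes thus held receptor transcripts at a larger share of the monocyte level for Ifngr1 than for Ifnar1 and Ifnar2. Ifngr2, the other chain for interferon-gamma, is not set beside them here, so this covers single chains and not whole receptors.

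Of the signalling genes, Tlr7, the receptor for imiquimod, was at 13.6 CPM in monocytes, 12.9 in macrophages, 7.64 in neutrophils and 0.0295 in keratinocytes. Irf8, a factor of dendritic cell and monocyte development, was at 576 CPM in dermal dendritic cells, and Socs1, a feedback inhibitor, at 60.6 in epidermal T cells against 9.76 in keratinocytes.
Of 36 other interferon-stimulated genes with a row, 4 of 33 with enough UMIs were at least 2-fold higher in monocytes than in macrophages and 2 lower, against 5.67 and 9.48% of all genes. Between dermal and epidermal T cells 5 of 26 were higher in the dermis and 6 lower, against 8.77 and 24.3% of all genes. Lgals3bp, which encodes a secreted glycoprotein, was at 302 CPM in epidermal and 77.2 in dermal T cells, and Apol9a at 38.3 and 2.49. Between epidermal T cells and keratinocytes 21 of 28 were higher in T cells and 2 lower, against 32.2 and 15.5% of all genes. Among the lower was Ifitm3, which blocks viral entry, at 476 against 2255 CPM. B2m, the light chain of MHC class I, was at 129.7 CPM in keratinocytes and at 1406 or more in the other 10 types.

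Types with fewer than 50 cells gave values with wide intervals. In 15 dermal plasmacytoid dendritic cells, which are the main makers of type I interferon on TLR7 stimulation, the 43 genes reached 2500 CPM (2275 to 2742), and 263 of 451 member UMIs were Bst2. Irf8 was at 804 CPM in these cells, and they held 0 UMIs of Ifnb1. In 37 endothelial cells the sum was 1555 CPM (1457 to 1656). Iigp1 was at 142 CPM there, in 14 of 37 cells, against 6.14 in fibroblasts, Bst2 was at 449.7 and Ifi44 at 16.3. The 28 natural killer cells had 873 CPM (745 to 1017), with Ifi203 at 117 and Isg15 at 95.8. The few myeloid cells of the epidermis library were also high, with 1323 CPM (1065 to 1624) in 17 monocytes, 1234 (1016 to 1485) in 39 neutrophils and 708 (601 to 830) in 38 macrophages, all above keratinocytes and Langerhans cells of the same library. Epidermal neutrophils had Isg15 at 165 CPM and Ifi27l2a at 529, against 144 and 682 in dermal neutrophils.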

How the data were processed

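Each library was deposited as a 10x matrix of UMI counts per gene and cell barcode, which the authors made with Cell Ranger 3.0.2 on the mm10 build per the labels (Chromium 3′ chemistry). Here, a cell needed at least 200 genes and no more than 10% of its UMIs from mitochondrial genes. Each cell was given the type whose marker list scored highest (minimum score 0.15, at least 3 markers detected), with Python 3.11.15, numpy 2.4.6 and scipy 1.17.1. UMIs were summed per type and divided by the UMI total (CPM). Intervals were exact Poisson, Clopper-Pearson or conditional, at 95%. Ratios used genes that reached 20 UMIs in the pair of types compared, and 0.5 UMI was added for log2 ratios and for calling 2-fold. The floor for a count of 0 was 3 UMIs. Cells were not replicates, so no test was run. Doublets were scored with Scrublet in scanpy 1.11.5 (180 dermal and 139 epidermal cells) and removed in an alternative only. The ratio steps were tested on simulated data. The members, marker lists and pathway lists were chosen with earlier results of these data known. All 44 members were to be named, and pathway genes with at least 20 UMIs could be. For likeness, the 3 members closest to Isg15 and Gbp2 were named. Gene positions came from GENCODE M21, which held 30934 of the 31053 identifiers, and promoters from RefSeq. PCR duplicates are collapsed by UMIs, so intervals cover counting error only. A gene of the signalling list is not reported here.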

Additional observations from a re-analysis of the deposited data

How the results depend on the processing

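Across 173 recomputed values, 106 stayed within the interval or the 1.5-fold range of the main value, 64 moved and 3 reversed. Monocytes were highest and keratinocytes lowest under each of 6 settings, and their ratio ran from 25.7 to 42.3. No paired analysis was possible because the labels give 1 library for each skin layer and no numbers that pair samples. The 3 members with the most UMIs were picked within each type, so types could drop different genes. Without the 3 members with the most UMIs the summed CPM was 434 in dermal T cells, 482 in basophils, 504 in dendritic cells, 439 in fibroblasts, 627 in macrophages, 257 in mast cells, 936 in monocytes, 845 in neutrophils, 117 in Langerhans cells, 279.9 in epidermal T cells and 28.1 in keratinocytes. The stricter gate gave 954 (dermal T cells), 859.5 (basophils), 1376 (dendritic cells), 726 (fibroblasts), 2494 (monocytes), 1720 (neutrophils) and 59.0 (keratinocytes). The mean of per-cell CPM gave 1482 (dermal T cells), 1336 (dendritic cells), 844 (fibroblasts), 1636 (macrophages), 2591 (monocytes), 1819 (neutrophils) and 100.7 (keratinocytes). Without doublets dermal T cells were at 953 and fibroblasts at 782, and without the richest cell basophils were at 868, dendritic cells at 1139, neutrophils at 1738 and keratinocytes at 60.6. The filter of the methods gave 1441 in macrophages and 74.4 in keratinocytes.

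The ratio of dermal over epidermal T cells was 1.20 without doublets, 1.18 with the stricter gate and 1.79 by per-cell means. Without the 3 leading members of each type it was 1.55. That value compares unlike sets, since Cxcl10 was dropped only in dermal and Irf7 only in epidermal T cells. The ratio reversed in the alternatives added after the data were seen, to 0.798 without Ifi27l2a, 0.806 in Trdc+ cells and 0.681 with both. With at least 50 UMIs, 4 of 12 members were higher in dermal T cells and 2 lower (7.79 and 19.9% of all genes), with at least 5 UMIs 17 of 35 were higher (11.2%), and without mitochondrial, ribosomal and keratin genes 2 of 24 were lower (19.8%). In Trdc+ cells 7 of 26 were higher at 5 UMIs (9.78%) and 2 of 6 lower at 50 (24.4%). Neutrophils were lower than monocytes for 13 of 42 with the other total (15.3%), and epidermal T cells lower than keratinocytes for 4 of 30 with 0.1 UMI added (23.6%). Thinning to 1000 and 2000 UMIs gave shares of 78.3 and 92.0% in monocytes, 68.0 and 85.7% in macrophages, 68.0 and 84.2% in neutrophils, 55.2 and 73.6% in dermal T cells, 51.1 and 74.3% in epidermal T cells, 19.6 and 28.8% in Langerhans cells, and 7.45 and 13.3% in keratinocytes. The share of member UMIs in the richest 5% of cells was 21.2% in monocytes, 29.1% in neutrophils, 31.6% in basophils and 30.1% in keratinocytes without the richest cell, and 31.9% in neutrophils without doublets. The cause of these changes was not tested. Depth limits epidermal T cells, with a median of 2359 UMIs, and mast cells most.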

Other observations

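The 310 dermal cells that no marker list claimed had 1077 CPM of the 43 genes (1032 to 1122), between dermal T cells and dendritic cells, with a median of 4204.5 UMIs. In dermal dendritic cells Zbp1 had 41 UMIs and in Langerhans cells 0, while Ifih1 was at 9.49 and 10.9 CPM and Usp18 at 8.76 and 10.2, which did not differ beyond counting error (ratios of 0.873, 0.386 to 1.94, and 0.860, 0.367 to 1.97). These pairs come from different libraries. Among the pathway genes, Psmb8, a subunit of the immunoproteasome, was at 1185 CPM in dermal dendritic cells and 918 in Langerhans cells, against 22.7 in keratinocytes.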
